A study of Mus musculus with 9 samples.

Results

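Circadian clock genes were read in sorted mouse microglia, the resident macrophages of the brain. The 10 genes considered were Arntl, Clock, Nr1d1, Nr1d2, Per1, Per2, Per3, Cry1, Cry2 and Dbp. A gene was measured where a probe set of the array carried its symbol and no other, and the brightest such probe set was taken. This held for 9 of the 10 genes, out of 22180 genes in all. The only probe set listing Per2 also listed another gene, so Per2 is not reported. The set was proposed with the values of these arrays in view, so it counts as chosen by its differences in the 3 comparisons below. The tests of its genes are therefore a description and no independent evidence.

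FAD DKO mice (FAD Hdac1/2fl/fl Cx3cr1CreERT2) carried FAD, transgenes with mutations of familial Alzheimer's disease that lead to amyloid plaques, floxed Hdac1 and Hdac2 alleles, and Cx3cr1CreERT2, a tamoxifen-inducible Cre driven from the fractalkine receptor locus. FAD mice (FAD Hdac1/2fl/fl) carried the transgenes and the floxed alleles without the Cre. Wild type mice are labelled with no transgene, floxed allele or Cre. Each genotype had 3 arrays, all from female C57Bl/6 mice aged 24 to 28 weeks that had received 8 mg tamoxifen at 6 weeks of age, controls included. Cre in the Cx3cr1 locus can act in other macrophages as well, and the labels give the FAD controls none, so deletion and Cre cannot be told apart. The labels do not say that arrays of a genotype come from separate animals, so the tests rest on a spread between samples that may be technical. The hour at which tissue was taken is not given in the sources used here.

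The clock is a feedback loop of transcription. BMAL1 (from Arntl) and CLOCK bind E-boxes and switch on the Per and Cry genes, whose proteins then block BMAL1 and CLOCK. The same pair switches on Nr1d1 and Nr1d2, which encode the nuclear receptors REV-ERB alpha and beta; these repress Arntl and several other genes through ROR elements. E-box driven genes and genes repressed by REV-ERB therefore peak at opposite times of day, and Dbp, an output gene, usually has a very large daily swing. REV-ERB represses through the NCoR complex with HDAC3, and in macrophages it restrains inflammatory genes.

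Of the deleted genes, Hdac1 stood at 7.41 to 7.64 in FAD DKO, 8.03 to 8.19 in FAD and 8.07 to 8.65 in wild type, and Hdac2 at 7.61 to 7.90 in FAD DKO, 8.36 to 8.56 in FAD and 8.22 to 8.39 in wild type (log2 signal, here and below). The FAD DKO arrays were lowest for both, although the probes may lie outside the deleted exons. The 9 measured microglia markers averaged 10.89 to 11.11 across the arrays, and those of neurons, the oligodendrocyte lineage, astrocytes and lymphocytes 4.32 to 5.53, where the median of all probe sets was 5.35. Of the microglia markers 9 lay below 0 in FAD minus wild type (52.1% of all genes) and 4 in FAD DKO minus FAD (46.7%). In FAD DKO minus wild type 7 did (48.6%), 4 of the 9 without overlap of the groups (6.15% of all genes). The test described below called 0 of the 9 in each comparison. Fcrls read 10.29 in FAD DKO replicate 3, its lowest array. Endothelial and mural markers averaged 5.43 to 5.58, and perivascular and border macrophage markers 5.18 to 5.54. Single markers stood higher, such as Slc1a3 of the astrocyte list (7.39 to 8.09, highest in FAD replicate 1) and Acta2 of the endothelial and mural list (7.17 to 7.54). Monocyte and neutrophil markers set single libraries apart, with a mean of 6.21, 8.33 and 7.44 in the 3 FAD DKO arrays and 7.51 to 7.66 in FAD. In wild type replicates 1, 2 and 3 it was 6.86, 7.51 and 7.51. Results for Nr1d1, Per1 and Cry1 are therefore also given without FAD DKO replicate 1 or 2. In such bulk samples, fewer cells of a type and less RNA per cell cannot be told apart.

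Nr1d1 fell in FAD DKO against wild type, and no other clock gene passed the test in any comparison. Per1, a light- and stress-inducible repressor of the loop, lay lowest in FAD DKO as well, without passing. Cry1, a strong repressor of BMAL1 and CLOCK, lay above FAD and wild type in FAD DKO, without passing. Arntl, Clock, Cry2 and Dbp differed little by the probe sets used. A gene was called at a Benjamini-Hochberg adjusted p under 0.05 over all 22180 genes in a limma fit of the 9 arrays. By this rule 1 of 9 clock genes was called in FAD DKO against wild type, as were 0.14% of all genes; it was lower, as were 0.0451%, and 0 were higher, as were 0.0947%. In FAD DKO against FAD 0 of 9 were called (0.0225% of all genes, all lower). In FAD against wild type 0 of 9 were called (0.0406% of all genes, 0.0316% higher and 0.00902% lower).

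At an unadjusted limma p under 0.05, 4 of 9 clock genes differed in FAD DKO against wild type (8.14% of all genes), 1 higher (3.95%) and 3 lower (4.19%). In FAD DKO against FAD 2 of 9 did (8.1% of all genes), 1 higher (3.69%) and 1 lower (4.41%). In FAD against wild type 4 of 9 did (8.43% of all genes), 0 higher (4.41%) and 4 lower (4.02%). By sign, 3 of 9 lay above 0 (51.3% of all genes) and 6 below (48.6%) in FAD DKO minus wild type, with a median of -0.03. In FAD DKO minus FAD 4 lay above 0 (53.2% of all genes) and 5 below (46.7%), with a median of -0.02. In FAD minus wild type 3 lay above 0 (47.9% of all genes) and 6 below (52.1%), with a median of -0.05. The medians over all genes were 0.00, 0.01 and -0.01 in the same order. The comparisons share arrays, so their values for a gene are not independent.

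**Figure D1:**
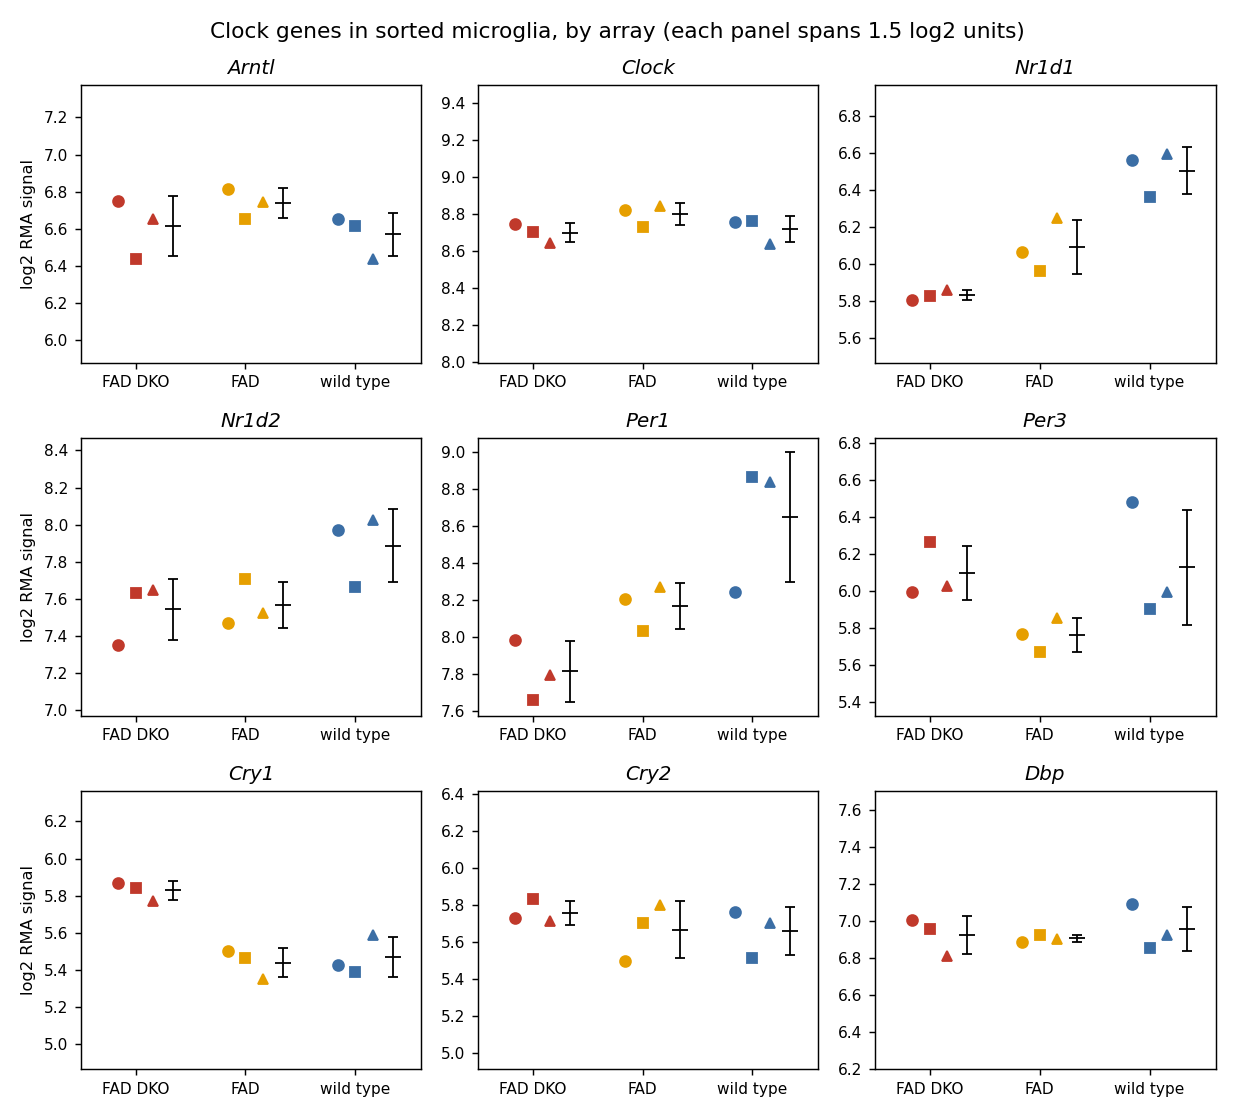
Log2 RMA signal of the 9 measured clock genes on each array, by genotype (circles, replicate 1; squares, replicate 2; triangles, replicate 3; bars, mean ± SD, n = 3). Each panel spans 1.5 log2 units around the data of its gene. Nr1d1 separates the 3 genotypes without overlap, and Cry1 stands higher in FAD DKO alone.

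Some genes of the loop hold short elements close to their start that clock factors are known to bind, and stretches with such matches are shown for the genes whose values differed most between genotypes. The RefSeq promoter table (GRCm38.p6) has windows of 250 bases before to 50 bases after a start for 9 of the 10 clock genes, 13 windows in all. The stretches below run 5′ to 3′ on the strand of the gene, with E-box, E-box variant and D-box matches in capitals. The capitals mark CACGTT, an E-box variant, in Nr1d1, the E-box CACGTG in Per1 (at one of its 2 listed starts), the D-box TTANNTAA in Per3, and CACGTT and CACGTG in Cry1. The matches to CACGTT read AACGTG, its reverse complement. The Per1 stretch also holds a match to AGGTCA on the other strand, 137 bases before the start, left in lower case.
Nr1d1, chr11:98775378-98775435, minus strand: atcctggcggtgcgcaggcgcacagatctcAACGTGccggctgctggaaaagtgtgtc
Per1, chr11:69098753-69098818, plus strand: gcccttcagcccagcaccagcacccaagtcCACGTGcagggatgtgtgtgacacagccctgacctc
Per3, chr4:151044786-151044900, minus strand: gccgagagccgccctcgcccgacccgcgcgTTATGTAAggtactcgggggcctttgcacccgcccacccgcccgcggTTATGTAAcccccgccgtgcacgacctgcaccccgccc
Cry1, chr10:85185079-85185163, minus strand: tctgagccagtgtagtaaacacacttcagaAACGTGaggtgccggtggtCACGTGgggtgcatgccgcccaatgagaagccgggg

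The capitals begin 28 bases before the start in Nr1d1, 166 in Per1, 205 and 158 in Per3, and 79 and 60 in Cry1. Both strands were searched, and no match in these windows overlapped a match to another of the motifs. CACGTG was found in 2 of the 13 windows of clock genes, against 7.15% of all 32851 windows, and CACGTT in 3 of 13, against 4.68%; Cry2 was the third gene with CACGTT, 166 bases before its start. TTANNTAA, which PAR bZIP factors such as DBP bind and NFIL3 competes for, matched in 1 of 13 windows, that of Per3 (6.0% of all windows). AGGTCA, the core of the ROR element, matched in 4 of 13 windows, 1 each of Nr1d2, Arntl, Clock and Per1, against 16.26% of all windows. The cyclic AMP element TGACGTCA matched in 0 of 13 (1.79% of all windows). A match describes letters in this window only.

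Arntl encodes the subunit of the activator that cycles. It read 6.75, 6.43 and 6.65 in FAD DKO, 6.81, 6.65 and 6.75 in FAD, and 6.65, 6.62 and 6.44 in wild type. The 3 groups overlapped, and 3 arrays of different genotypes held the same deposited value (6.65). FAD and wild type met only at that value, which counts as overlap here. The differences were 0.04 (95% interval -0.18 to 0.27) in FAD DKO minus wild type, -0.12 (-0.35 to 0.10) in FAD DKO minus FAD and 0.17 (-0.06 to 0.39) in FAD minus wild type, with adjusted p = 0.938, 0.748 and 0.688. Without FAD DKO replicate 2, FAD DKO minus FAD was -0.04 for Arntl, and with wild type replicate 3 left out FAD minus wild type was 0.10.

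Clock encodes the partner of BMAL1, whose transcript cycles weakly in most tissues. Its 9 values lay between 8.64 and 8.84, the narrowest range among the 9 clock genes. The differences were -0.02 in FAD DKO minus wild type, -0.10 in FAD DKO minus FAD and 0.08 in FAD minus wild type (adjusted p = 0.963, 0.711 and 0.782), and the groups overlapped in each.

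Nr1d1 encodes REV-ERB alpha. It read 5.81, 5.83 and 5.86 in FAD DKO, 6.06, 5.96 and 6.25 in FAD, and 6.56, 6.36 and 6.59 in wild type. Every FAD DKO array lay below every FAD array, and every FAD array below every wild type array. Means were 5.83 ± 0.0265 in FAD DKO, 6.09 ± 0.146 in FAD and 6.50 ± 0.125 in wild type (SD, n = 3).

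Nr1d1 fell by 0.67 on the log2 scale in FAD DKO against wild type (SE 0.0928, 95% interval -0.88 to -0.46), to 0.627 of the wild type signal, with adjusted p = 0.0435. FAD DKO minus FAD was -0.26 (SE 0.0928, adjusted p = 0.518) and FAD minus wild type was -0.41 (SE 0.0928, adjusted p = 0.281). The call lay close to the threshold. Leaving out 1 array kept the difference between -0.75 and -0.63, but ended the call without FAD DKO replicate 1 (adjusted p = 0.158), 2 (0.130) or 3 (0.144), without FAD replicate 1 (0.0729), and without wild type replicate 1 (0.139), 2 (0.0881) or 3 (0.149). Over all 17 alternatives the adjusted p ran from 0.0113 to 0.158 and was under 0.05 in 7; it was 0.0841 with the replicate number as a block.

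Nr1d2 encodes REV-ERB beta, which overlaps with REV-ERB alpha in function. It read 7.35, 7.63 and 7.64 in FAD DKO, 7.47, 7.71 and 7.52 in FAD, and 7.97, 7.66 and 8.02 in wild type. The FAD DKO arrays lay below the wild type arrays, while FAD overlapped with both. The differences were -0.34 in FAD DKO minus wild type (SE 0.123, adjusted p = 0.491), -0.02 in FAD DKO minus FAD (adjusted p = 0.968) and -0.32 in FAD minus wild type (adjusted p = 0.554). The interval of FAD DKO minus FAD was -0.30 to 0.26 for Nr1d2.

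Per1 read 7.98, 7.66 and 7.79 in FAD DKO, 8.20, 8.03 and 8.27 in FAD, and 8.24, 8.86 and 8.84 in wild type. The FAD DKO arrays lay below all others, and wild type replicate 1 lay among the FAD arrays. Per1 had the widest range of the 9 clock genes over the arrays, 2.30-fold, and its SD within groups exceeded that of 96.5% of the 1000 genes nearest to it in mean.

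Per1 gave -0.83 in FAD DKO minus wild type (SE 0.166, 95% interval -1.21 to -0.46), which is 0.561 of the wild type signal, with adjusted p = 0.125. The difference was -0.35 in FAD DKO minus FAD (adjusted p = 0.628) and -0.48 in FAD minus wild type (adjusted p = 0.508). Without wild type replicate 1, FAD DKO minus wild type was -1.04 and passed (adjusted p = 0.0421). It also passed with a filter on dim probe sets (adjusted p = 0.0488) and with a trended, robust variance model (adjusted p = 0.04995), and over all 17 alternatives the adjusted p ran from 0.0421 to 0.364. Without FAD DKO replicate 1 it was -0.92, and without FAD DKO replicate 2 it was -0.76 (adjusted p = 0.201 and 0.290).

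Per1 is also an immediate early and a glucocorticoid-responsive gene, so genes of both kinds are given beside it. Of 12 immediate early genes, 12 lay below 0 in FAD DKO minus FAD (46.7% of all genes, list median -0.37). In FAD DKO minus wild type 9 did (48.6% of all genes, list median -0.33), and in FAD minus wild type 5 did (52.1%, list median 0.05). The stress-induced factor Atf3 passed in both comparisons with FAD DKO, at -0.79 against FAD (adjusted p = 0.0314) and -0.69 against wild type (adjusted p = 0.0261). The call against FAD was lost with only the 2 groups compared, without FAD replicate 2 and without FAD DKO replicate 3, where no gene at all was called. Atf3 itself was not followed under the alternatives. Of 10 glucocorticoid-responsive genes, 6 lay below 0 in FAD DKO minus FAD (median -0.03) and 6 in FAD minus wild type (median -0.05). In FAD DKO minus wild type 5 lay below 0 and 5 above, the highest at 0.27 (median 0.01). Those below 0 there included the receptor co-chaperone Fkbp5 at -0.40 (adjusted p = 0.428) and the kinase Sgk1 at -0.25 (adjusted p = 0.466). The part of these genes in the values of Per1 was not tested.

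Per3, a paralogue thought to be dispensable for the core loop in mice, read 6.00, 6.27 and 6.03 in FAD DKO, 5.77, 5.67 and 5.86 in FAD, and 6.48, 5.91 and 6.00 in wild type. FAD was the low group, below every FAD DKO and every wild type array. The differences were 0.33 in FAD DKO minus FAD (SE 0.147, adjusted p = 0.615) and -0.36 in FAD minus wild type (SE 0.147, adjusted p = 0.576). FAD DKO minus wild type was -0.03 (95% interval -0.36 to 0.30, adjusted p = 0.971). Wild type replicate 1 moved FAD minus wild type by more than 1.5 times, to -0.19 without it.

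Cry1 read 5.87, 5.84 and 5.77 in FAD DKO, 5.50, 5.46 and 5.35 in FAD, and 5.43, 5.39 and 5.59 in wild type. All 3 FAD DKO arrays lay above all 6 others. Its levels were close to the median of all probe sets (5.35). The differences were 0.39 in FAD DKO minus FAD (SE 0.0774, 95% interval 0.22 to 0.57, 1.31-fold, adjusted p = 0.229) and 0.36 in FAD DKO minus wild type (SE 0.0774, 1.28-fold, adjusted p = 0.163). FAD minus wild type was -0.03 (adjusted p = 0.939). Cry1 was not called under any of the 17 alternatives, with adjusted p from 0.0901 to 0.528 in FAD DKO minus FAD and from 0.0550 to 0.452 in FAD DKO minus wild type. Without FAD DKO replicates 1 or 2 in turn, FAD DKO minus wild type was 0.34 and 0.35. Leaving out 1 array kept the first difference between 0.35 and 0.42 and the second between 0.32 and 0.42.

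Cry2, the other cryptochrome, read 5.73, 5.83 and 5.71 in FAD DKO, 5.50, 5.70 and 5.80 in FAD, and 5.76, 5.51 and 5.70 in wild type. The 3 groups overlapped. FAD DKO minus FAD was 0.09 (95% interval -0.13 to 0.31), FAD DKO minus wild type 0.09 (-0.13 to 0.32) and FAD minus wild type 0.01 (-0.22 to 0.23), with adjusted p = 0.825, 0.857 and 0.991. Another, brighter probe set listed Cry2 beside a further gene and was left out. It read 6.34, 6.31 and 6.58 in FAD DKO, 6.23, 6.17 and 6.17 in FAD, and 6.34, 6.36 and 6.42 in wild type. There every FAD array lay below every FAD DKO and every wild type array.

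Dbp encodes a PAR bZIP transcription factor that carries the rhythm to output genes. It read 7.003, 6.96 and 6.81 in FAD DKO, 6.88, 6.93 and 6.90 in FAD, and 7.09, 6.85 and 6.93 in wild type. The groups overlapped and the whole range was 0.28 log2 units, or 1.21-fold. The differences were -0.03 in FAD DKO minus wild type (95% interval -0.22 to 0.15), 0.02 in FAD DKO minus FAD (-0.17 to 0.20) and -0.05 in FAD minus wild type (-0.24 to 0.13). The adjusted p was 0.946, 0.961 and 0.900.

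**Figure D2:**
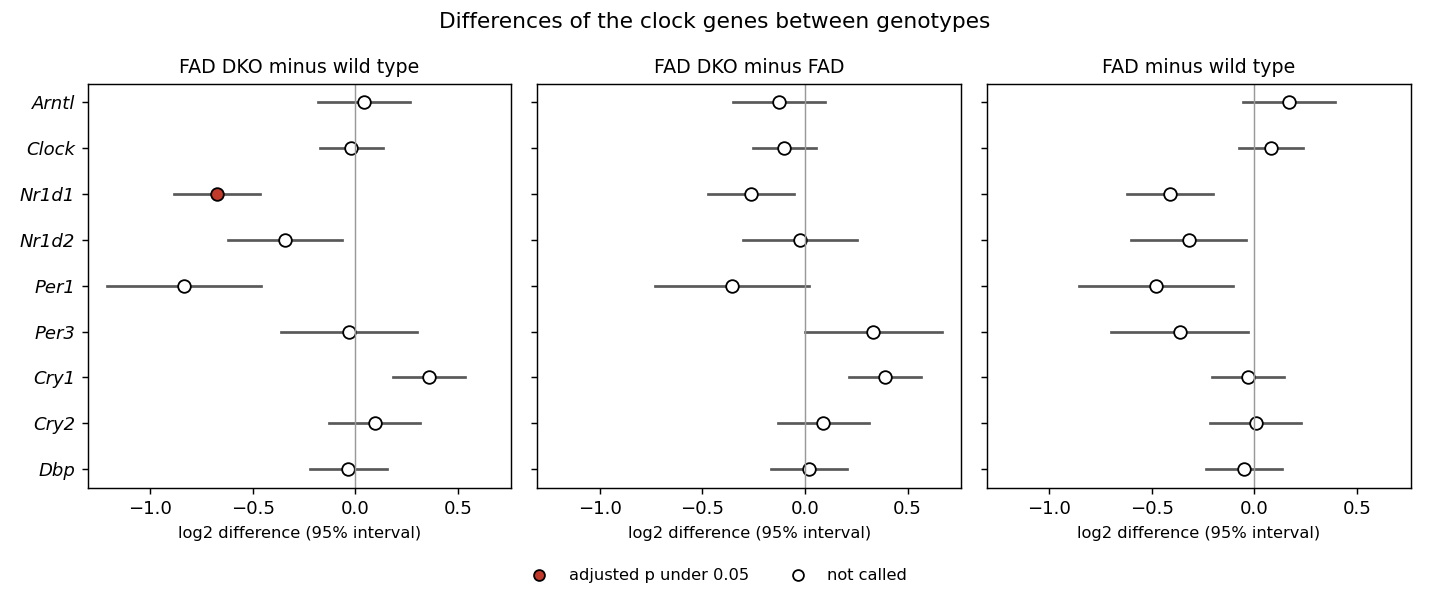
Log2 differences of the 9 measured clock genes in 3 panels, against wild type and against FAD for FAD DKO and against wild type for FAD (points, estimates of the limma fit; lines, 95% intervals for a single gene, not adjusted for the number of genes). Nr1d1 in FAD DKO minus wild type is the filled point, at an adjusted p of 0.0435. Arntl, Dbp, Clock and Cry2 have intervals that include 0 in every panel.

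Without overlap, FAD DKO lay below wild type for 3 of 9 clock genes (Nr1d1, Nr1d2 and Per1; background 6.15%) and above it for 1 (Cry1; background 5.77%). FAD DKO lay below FAD for 2 (Nr1d1 and Per1; background 6.5%) and above it for 2 (Per3 and Cry1; background 5.38%). FAD lay below wild type for 2 (Nr1d1 and Per3; background 5.46%) and above it for 0 (background 6.37%). A tie counted as overlap in all these counts and backgrounds, as for Arntl between FAD and wild type. The genes were chosen with results of these arrays known, so these shares describe them and support nothing further.

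Other genes of the clock were read from a list of 21, of which 18 were measured, and 0 passed in any comparison. At an unadjusted limma p under 0.05, 2 of 18 were higher (3.95% of all genes) and 0 lower (4.19%) in FAD DKO minus wild type. In FAD DKO minus FAD 2 were higher (3.69%) and 1 lower (4.41%), and in FAD minus wild type 2 were higher (4.41%) and 0 lower (4.02%). Without overlap, 1 of 18 was higher (5.77% of all genes) and 1 lower (6.15%) in FAD DKO minus wild type. In FAD DKO minus FAD 3 were higher (5.38%) and 3 lower (6.5%) without overlap. In FAD minus wild type 1 was higher (6.37%) and 2 lower (5.46%). Bhlhe40 encodes DEC1, a repressor that competes at E-boxes and is strongly inducible in macrophages. It read 6.86, 6.70 and 7.03 in FAD DKO, 6.48, 6.79 and 6.40 in FAD, and 5.84, 6.42 and 5.54 in wild type. The FAD DKO arrays lay above all wild type arrays, and FAD overlapped with both. FAD DKO minus wild type was 0.93 (SE 0.206, 1.91-fold, adjusted p = 0.179), FAD DKO minus FAD 0.31 (adjusted p = 0.703) and FAD minus wild type 0.62 (adjusted p = 0.502). Its paralogue Bhlhe41 gave -0.01, 0.16 and -0.17 in the same order (adjusted p = 0.979, 0.634 and 0.604).

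The PAR bZIP genes Hlf and Tef, relatives of Dbp, were lowest in FAD on average. Hlf read 6.14, 6.12 and 5.94 in FAD DKO, 5.74, 5.67 and 5.86 in FAD, and 5.94, 5.77 and 5.82 in wild type. FAD DKO minus FAD was 0.31 for Hlf (SE 0.0857, adjusted p = 0.383) and FAD DKO minus wild type 0.22 (adjusted p = 0.532). Tef gave 0.27 in FAD DKO minus FAD (adjusted p = 0.599) and -0.24 in FAD minus wild type (adjusted p = 0.620), and 4 arrays shared a deposited value for it. Without FAD replicate 2, the low array, these were 0.16 and -0.14. In FAD DKO minus wild type it was 0.03, or -0.15 with the mean of its probe sets. Nfil3, the repressor that competes with PAR bZIP factors, read 5.64, 5.90 and 5.71 in FAD DKO, 6.00, 6.03 and 5.96 in FAD, and 5.79, 5.90 and 5.98 in wild type. All FAD DKO arrays lay below all FAD arrays for Nfil3, and the difference was -0.25 (SE 0.0855, adjusted p = 0.504).

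Btrc, an F-box subunit of the ligase that marks PER proteins for destruction, was higher in every FAD array than in every wild type array (0.24, SE 0.0752, adjusted p = 0.485). It read 7.17, 7.20 and 7.20 in FAD DKO, 7.38, 7.22 and 7.29 in FAD, and 7.01, 6.98 and 7.18 in wild type. Every FAD DKO array of Btrc lay below every FAD array, and FAD DKO overlapped with wild type. The kinases that phosphorylate PER and CRY proteins differed little. Csnk1e gave 0.08, 0.13 and -0.05, Csnk1a1 -0.08, -0.08 and -0.01, and Gsk3b 0.09, 0.07 and 0.02, in the order of comparisons above, with adjusted p from 0.669 to 0.989. The remaining genes of the list, Npas2, Arntl2, Rora, Rorb, Ciart, Fbxl21, Fbxw11, Timeless and Cipc, lay between -0.22 and 0.25 in the 3 comparisons. Npas2, the CLOCK paralogue, and Rorb, a receptor that activates through ROR elements, had means of 4.54 and 4.14, under the median of all probe sets. The means of Arntl2 (4.97), Fbxl21 (4.68) and Timeless (5.31) also lay under that median (5.35).

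**Figure D3:**
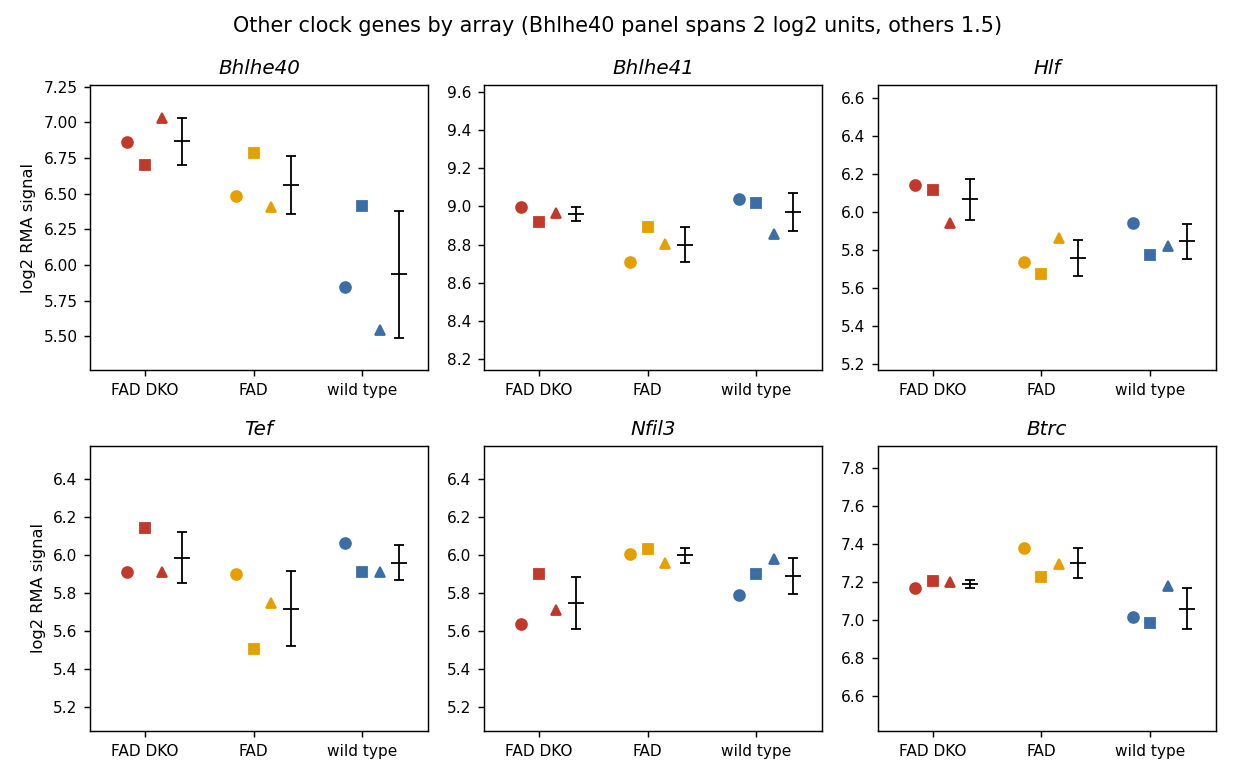
Log2 RMA signal of 6 other clock genes on each array, by genotype (circles, replicate 1; squares, replicate 2; triangles, replicate 3; bars, mean ± SD, n = 3). The Bhlhe40 panel spans 2 log2 units and the others 1.5; the FAD DKO arrays of Bhlhe40 lie above all wild type arrays, and those of Nfil3 lie below all FAD arrays.

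A difference in phase between groups could move E-box driven genes one way and genes repressed by REV-ERB the other, so both classes were read together. The hour of collection is not given, and phase itself was not tested. Correlations of Arntl with the other clock genes are given further below and cannot decide whether phase differed. The E-box driven class held Nr1d1, Nr1d2, Per1, Per3, Dbp, Tef, Hlf, Ciart and Bhlhe41, and the other class Arntl, Clock, Npas2, Cry1 and Nfil3. In FAD minus wild type, 9 of 9 E-box driven genes lay below 0 (median -0.24), as did 52.1% of all genes (median -0.01 over all genes). That count depends on which genes the class holds. Bhlhe40 and Cry2, whose promoters E-boxes also drive, were not in it and lay at 0.62 and 0.01. For Cry2 this is the probe set with its symbol alone, and by the probe set left out FAD lay below wild type. With Bhlhe40 and Cry2 added, a choice made after seeing the data, 9 of 11 lay below 0 (median -0.17). The clock-controlled output genes given further below were not in the class either, and 7 of 9 of them lay above 0 here (47.9% of all genes). Cry1, which has both kinds of input, was placed in the other class. Of the other class 3 of 5 lay above 0 (median 0.08), and 4 of 5 with quantile normalization or array weights. The filter on dim probe sets dropped Npas2, with 3 of 4 above 0 (median 0.09). Without 1 array, 8 or 9 of 9 E-box driven genes stayed below 0, with medians from -0.27 to -0.19; Dbp turned to 0.014 without wild type replicate 1.

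In FAD DKO minus FAD, E-box driven genes split. Per3, Hlf, Tef, Bhlhe41 and Dbp lay above 0 and Nr1d1, Nr1d2, Per1 and Ciart below it (median 0.02, against 0.01 over all genes). With Bhlhe40 and Cry2 added, 7 of 11 lay above 0 (median 0.09). Nr1d2 turned to 0.0083 with quantile normalization. Of the genes repressed by REV-ERB 4 of 5 lay below 0 (median -0.10), and Cry1 above it. In FAD DKO minus wild type, 7 of 9 E-box driven genes lay below 0 (median -0.03) and 3 of 5 of the other class (median -0.02), against a median of 0.00 over all genes. In this comparison Nr1d1 and Per1 were at -0.67 and -0.83, while Dbp, Per3, Tef and Bhlhe41, of the same class, were within 0.04 of 0. The signs of the values near 0 changed with the settings, and the counts below 0 ran from 4 to 8 of 9 and from 2 to 4 of 5 without 1 array. The medians of both classes in FAD DKO minus wild type also changed sign with the settings. No test was made of these counts.

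**Figure D4:**
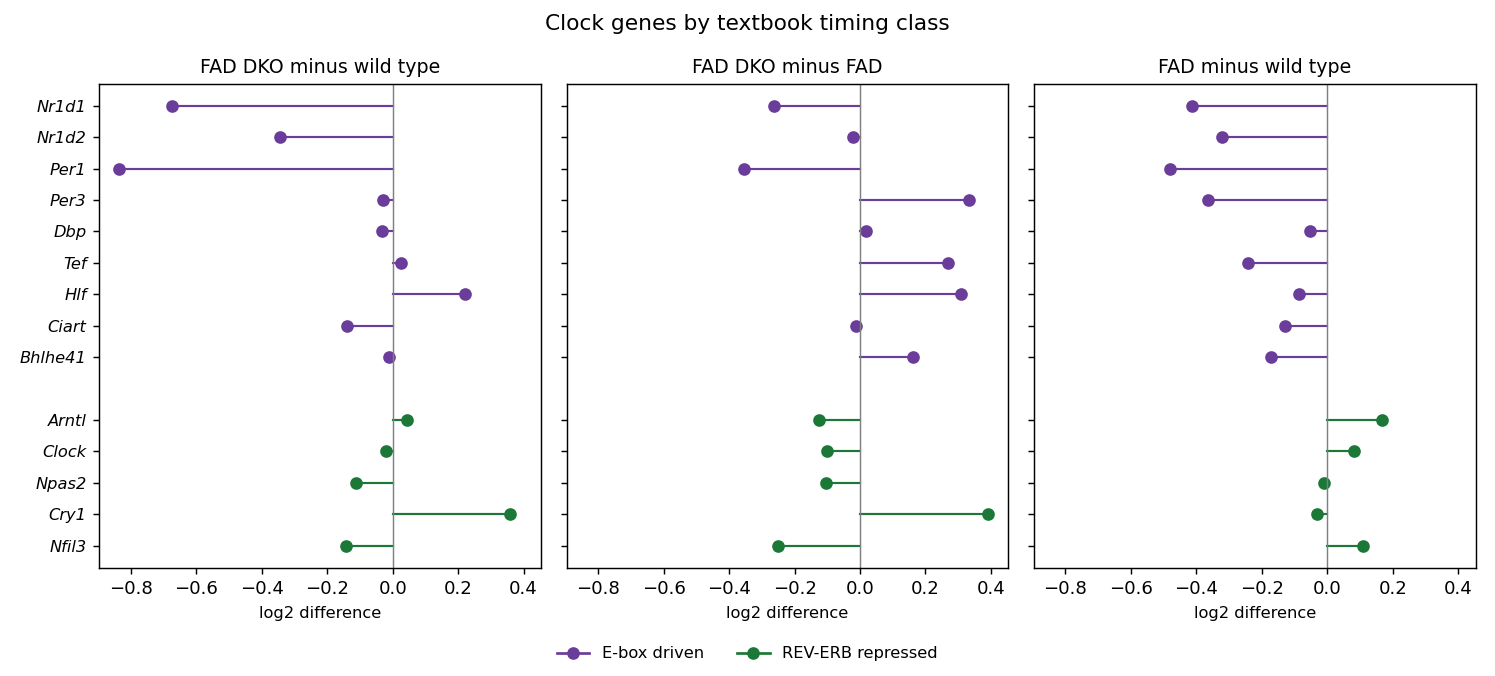
Log2 differences of 9 E-box driven genes (purple) and 5 genes repressed by REV-ERB (green), as points joined to 0, with a panel for each comparison and FAD minus wild type last. The 9 genes of the E-box class as drawn lie below 0 in FAD minus wild type (Bhlhe40 and Cry2, not drawn, lie at 0.62 and 0.01), and Cry1 lies apart from the rest of its class in both panels with FAD DKO.

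Arrays of different phase could also set Arntl against E-box driven genes from array to array. The permutations below shuffled all 9 arrays without regard to genotype. Some of these genes differed between genotypes, so the p-values do not isolate relations from array to array within a genotype. Over the 9 arrays, Arntl had a Pearson r of -0.22 with Nr1d1 (exact permutation p = 0.552, two-sided), -0.63 with Nr1d2 (exact p = 0.0603), -0.13 with Per1 (exact p = 0.75), -0.40 with Per3 (exact p = 0.281) and -0.06 with Dbp (exact p = 0.886). With Clock, of the same class, r was 0.72 (exact permutation p = 0.0285). Spearman's rho was -0.24, -0.64, -0.05, -0.44, -0.08 and 0.61 for Nr1d1, Nr1d2, Per1, Per3, Dbp and Clock, with exact p = 0.543, 0.0693, 0.917, 0.238, 0.849 and 0.0903. Of 8 such relations, 0 passed after adjustment by either measure (lowest adjusted p = 0.228 for Pearson's r and 0.361 for Spearman's rho). Cry1 and Cry2 gave r of -0.28 and -0.36 (exact p = 0.466 and 0.349) and rho of -0.08 and -0.21 (exact p = 0.844 and 0.582).

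Without FAD DKO replicate 2 and wild type replicate 3, the arrays farthest from the median of Arntl, r was -0.71 with Nr1d2 and 0.61 with Clock. It was -0.31, -0.26, -0.30 and 0.04 with Nr1d1, Per1, Per3 and Dbp, and 0.16 and -0.11 with Cry1 and Cry2. For deviations from the group means, which leave out differences between genotypes, r was -0.65 with Nr1d2 and 0.61 with Clock, and between -0.07 and 0.11 with Nr1d1, Per1, Per3 and Dbp. The r of deviations was not tested, and a genotype has too few arrays for a value of its own.

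The spread within groups differed between clock genes. Among the 1000 genes nearest in mean, the SD within groups exceeded that of 42.2% for Nr1d1, 40.6% for Dbp, 59.4% for Arntl, 28.0% for Clock, 41.4% for Cry2 and 13.8% for Cry1, but of 96.5% for Per1, 88.4% for Nr1d2 and 85.0% for Per3. Exactly equal deposited values occurred on some arrays for 4 of the 9 clock genes, and for 60.1% of all genes, so ranks among such arrays carry no order.

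REV-ERB partners and outputs of the clock were read beside the loop. Hdac3, the deacetylase that REV-ERB recruits, gave 0.02 in FAD DKO minus wild type, -0.08 in FAD DKO minus FAD and 0.10 in FAD minus wild type (adjusted p = 0.971, 0.837 and 0.811). Tbl1x, Tbl1xr1 and Gps2, subunits of the NCoR complex, lay between -0.11 and 0.08 in the 3 comparisons. Of 9 measured clock-controlled output genes 0 passed in FAD DKO minus wild type (0.14% of all genes), FAD DKO minus FAD (0.0225%) or FAD minus wild type (0.0406%). Above 0 lay 4 of 9 in FAD DKO minus wild type (51.3% of all genes; median -0.03), 3 in FAD DKO minus FAD (53.2%; median -0.02) and 7 in FAD minus wild type (47.9%; median 0.05). Among them Rgs16, a brake on G protein signalling, gave 0.80 in FAD DKO minus wild type (adjusted p = 0.493). It read 5.83, 6.18 and 6.53 in FAD DKO, 5.51, 6.26 and 5.08 in FAD, and 5.56, 5.12 and 5.48 in wild type. FAD overlapped with both, and the SD of Rgs16 within groups exceeded that of 98.9% of the 1000 genes nearest in mean. Lonrf3 gave 0.42 in FAD minus wild type (adjusted p = 0.466), and both FAD and FAD DKO lay above wild type without overlap. Of the 9 output genes 3 were higher without overlap (5.77% of all genes) and 0 lower (6.15%) in FAD DKO minus wild type. In FAD DKO minus FAD 1 was higher (5.38%) and 1 lower (6.5%), and in FAD minus wild type 1 higher (6.37%) and 0 lower (5.46%).

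Over the 9 arrays, the genes most like Nr1d1 by Pearson's r, among 11531 genes at or above the median of all probe sets, were Hfe (0.97), Fgd2 (0.96), Smpdl3b (0.94), Tnfaip3 (0.94) and Naip5 (0.94). Those most like Arntl were Ino80d (0.96), Hnrnpc (0.95), Nasp (0.95), Vbp1 (0.95) and Lrrfip2 (0.95). These are the highest of many values over few arrays that share their genotypes, and are given as a description.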

How the data were processed

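The authors deposited RMA values on the log2 scale for one-colour arrays, per the submitters' processing notes. The sources used here give neither the version of RMA nor its summary level. Amplified, biotin-labelled total RNA was hybridised, per the labels' protocols. Array medians lay between 5.346 and 5.398. Signal over background is unknown without detection calls, and the number of arrays limits the precision. Symbols came from the platform annotation, checked through gene identifiers against RefSeq (GRCm38.p6); of 41345 probe sets, 23521 had 1 symbol, 1814 several and 16010 were unlisted.

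Differences were fitted with limma 3.58.1 (R 4.3.3; lmFit and eBayes) with all 9 arrays in a single model that has 1 mean for each genotype (6 residual degrees of freedom, 8.98 after moderation), two-sided, with Benjamini-Hochberg adjustment over 22180 genes. Exact permutation tests used numpy 2.4.6 and shuffled all 9 arrays without regard to genotype. The fit was tested on simulated data. Same-numbered arrays correlated between -0.11 and 0.12 in their deviations from group means (over 0.1 in 1 of 9 pairs). The main fit therefore did not pair samples by number, although such values cannot exclude that same-numbered arrays were processed together. The clock genes and lists were chosen with earlier results of these data known. All clock, partner and output genes were eligible to be named; of other lists, up to 3 members with the smallest p in a comparison; and for Nr1d1 and Arntl, the 5 most alike genes. Alternatives were a filter on dim probe sets, quantile normalization, array weights, a replicate block, leaving out each array, a variance model with trend and robust options, fits of the compared groups alone, and 2 other treatments of probe sets (their mean per gene, or each tested singly). Figures used matplotlib 3.10.9.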

Additional observations from a re-analysis of the deposited data

How the results depend on the processing

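The number of arrays limits the precision; the median SE of a difference was 0.104. In FAD DKO against wild type 1 clock gene was called; the count was 2 with a low-signal filter or a trended and robust variance model, 0 with only the 2 groups compared, every probe set or the replicate block, and 0 to 1 without 1 array. In the other comparisons it was 0 throughout (lowest unadjusted p = 0.00069 for Cry1 in FAD DKO minus FAD and 0.00162 for Nr1d1 in FAD minus wild type). Whether the replicate number pairs samples is not known. As a block it left 11 genes of all called in FAD DKO against wild type (31 without it). It left 2 in FAD DKO against FAD (5 without it) and 8 in FAD against wild type. All genes called numbered 31 in FAD DKO against wild type, and 117 with the low-signal filter, which tests fewer genes, 124 with trend and robust, 82 with array weights, 13 with only the 2 groups, 14 with every probe set and 2 to 28 without 1 array. They numbered 5 in FAD DKO against FAD, and 11, 12, 5 and 0 with the first 4 of these settings, 3 with quantile normalization and 0 to 5 without 1 array. They numbered 9 in FAD against wild type, and 33, 43, 22 and 5 with the same 4 settings and 8 to 12 without 1 array. The cause was not tested.

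Of 1362 values for 27 clock genes under the alternatives, 1294 kept direction and side of the threshold, 10 lost the call (Nr1d1), 3 gained it (Per1) and 55 changed sign, none of them a called value. Nr1d1 kept -0.67 with only the 2 groups compared (adjusted p = 0.0795) and every probe set (adjusted p = 0.0952). Sign changed in FAD minus wild type for Npas2 (0.021 with quantile normalization, 0.034 with array weights) and Fbxw11 (-0.021 with quantile normalization). It changed in FAD DKO minus FAD for Nr1d2 (0.0083 with quantile normalization) and Fbxl21 (0.016 with array weights). It changed in FAD DKO minus wild type for Rora (-0.0016) and Bhlhe41 (0.011) with quantile normalization, Per3 (0.0049) and Rorb (-0.051) with array weights, and Tef (-0.15 with the mean of probe sets). Without 1 array, FAD minus wild type ran from -0.10 to 0.014 for Dbp, -0.066 to 0.091 for Cry2, -0.071 to 0.029 for Cry1, -0.10 to 0.042 for Npas2, -0.020 to 0.016 for Csnk1a1, -0.011 to 0.020 for Fbxw11, -0.41 to 0.11 for Rorb and -0.0044 to 0.045 for Gsk3b. FAD DKO minus FAD ran from -0.077 to 0.44 for Rorb, -0.036 to 0.027 for Ciart, -0.074 to 0.072 for Nr1d2, -0.021 to 0.075 for Dbp, -0.18 to 0.045 for Rora, -0.082 to 0.056 for Fbxl21 and -0.0020 to 0.072 for Fbxw11. FAD DKO minus wild type ran from -0.14 to 0.15 for Per3, -0.084 to 0.033 for Dbp, -0.10 to 0.17 for Rorb, -0.069 to 0.023 for Bhlhe41, -0.060 to 0.0069 for Clock, -0.11 to 0.12 for Rora, -0.052 to 0.078 for Tef, -0.025 to 0.13 for Arntl, -0.16 to 0.10 for Arntl2 and -0.12 to 0.030 for Timeless.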
